A study of Zea mays with 16 samples.

Results

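The genes described here are 175 maize genes whose deposited description begins with Peroxidase (140 genes), Glutathione (34 genes) or GST (1 gene, GST7), out of 37759 genes tested and 38179 listed. To be counted, a gene needed a normalised count of at least 10 in at least 4 of the 16 libraries, counted over all libraries without regard to cell type or time. Of the 176 listed genes with such a description, 175 met this. The gene left out was the peroxidase Zm00001d022281, with 3 libraries at 10 or more and a highest count of 99.9, whereas Zm00001d029280, Zm00001d014602 and Zm00001d031951 were the lowest inside it, with 6 libraries each. Descriptions were used by their first word, so a Glutathione gene may be a transferase or another glutathione enzyme, and the name glutathione transferase could be checked only for GST7.

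Guard cells open and close the stomatal pore, and grasses have subsidiary cells at their flanks. Both were cut by laser from leaf epidermis of the maize inbred line B104. Strips came from leaf 3 of plants 2 weeks old, grown with 16 h of light (25 °C) and 8 h of darkness (22 °C). The 4 groups, of 4 libraries each, were guard day, guard night, subsidiary day and subsidiary night. Day strips were taken 2 h after lights on and night strips 2 h after lights off, all samples were of line B104, and each library pooled about 1500 cells in each of 2 tubes. Subsidiary night samples have a title with a word close to day, but are night samples by treatment label and library name, and were used as such.

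Class III peroxidases are secreted haem enzymes that use hydrogen peroxide to oxidise phenolic compounds in the cell wall, which couples lignin precursors and can cross-link wall polymers, and they can also produce reactive oxygen. Glutathione transferases join the tripeptide glutathione to reactive compounds, herbicides among them in maize, and some members reduce lipid peroxides. Hydrogen peroxide is also a signal in the closing of stomata in response to abscisic acid. Both families are large in grasses, and many copies lie beside each other in the genome.

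Depth was 16.6 to 28.9 M recovered reads a library, with a median of 22.2 M. Replicate 4 of guard cells by night and replicate 1 of subsidiary cells by day stood apart, with mean Spearman correlations to the other libraries of 0.648 and 0.676, against 0.713 to 0.764 for the rest. Summed counts of 68 genes with photosynthetic descriptions took 0.618 ± 0.199% of reads in guard day, 0.167 ± 0.0859% in guard night, 0.266 ± 0.127% in subsidiary day and 0.134 ± 0.0121% in subsidiary night libraries (SD, n = 4 each). Within single libraries these shares ran from 0.405 to 0.802%, 0.0428 to 0.241%, 0.121 to 0.429% and 0.122 to 0.146% in the same groups, and 0 of the 68 genes were at 0 in every library. A list of 100 histone and cyclin genes took 0.147 ± 0.0295%, 0.204 ± 0.110%, 0.0758 ± 0.0227% and 0.248 ± 0.0343% in the same order, and 2 vascular genes took 0.00203% or less in every library. No list of guard cell markers could be built from first words, so the labelled cell types were not checked against defining genes. In dissected tissue of this kind, fewer cells of a type and less RNA per cell cannot be told apart.

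Counts of the 175 genes were uneven. Mean normalised counts of the peroxidases, which are not adjusted for gene length, ran from 22.7 to 275097 with a median of 81.3, and 7 lay over 1000, 51 between 100 and 1000 and 82 under 100. Those of the Glutathione genes ran from 26.5 to 9443 with a median of 131, with 2 over 1000, 19 between 100 and 1000 and 13 under 100. The median over all tested genes was 182. Counts of at least 10 in all 16 libraries were found for 83 of the 175 genes, and 21 genes were at 0 in at least 1 library. Within groups the log2 counts had a median SD of 1.24 for the 175 genes, beside 1.04 for all genes.

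**Figure D1:**
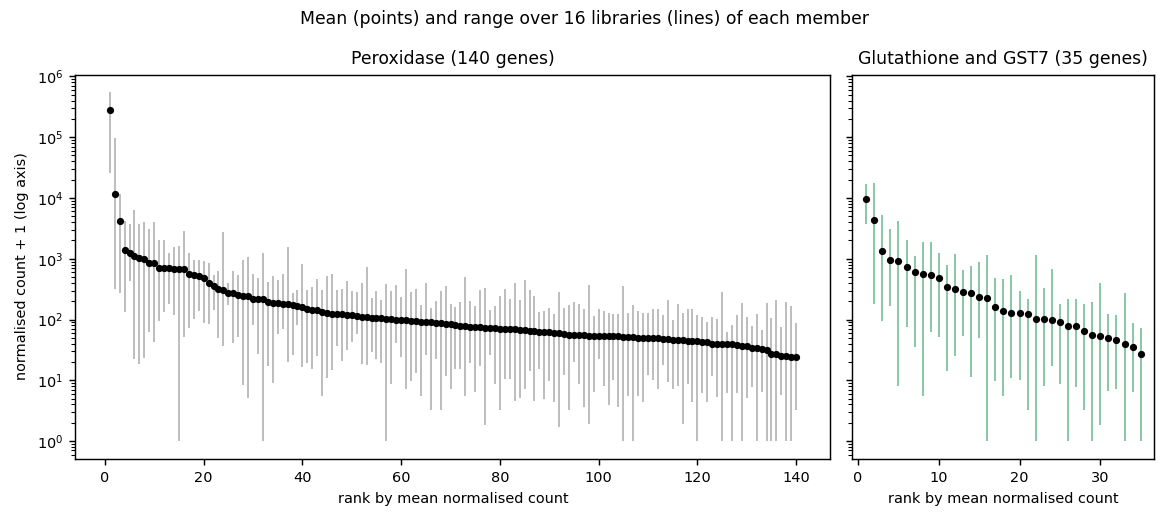
Mean normalised count over the 16 libraries (points) and lowest to highest library (lines) of each gene on a log axis, ranked within 140 peroxidases (left) and 35 Glutathione and GST7 genes (right). A single peroxidase stands at 275097, above the next at 11581, and most genes of both panels lie under 1000.

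A single peroxidase, Zm00001d040702, held 60.7 to 94.0% of all peroxidase counts in a library and ranked 6 among all tested genes by mean count. Its normalised counts were 211569, 254777, 229861 and 293475 in guard day libraries, 181220.0, 295222, 469272 and 25352 in guard night libraries, 177923, 428362, 229483 and 553616 in subsidiary day libraries and 169783, 221315, 272124 and 388207 in subsidiary night libraries. The groups overlapped throughout, and the low value belonged to replicate 4 of guard cells by night. As a share of reads the gene took 1.14 ± 0.211% in guard day, 1.19 ± 0.806% in guard night, 1.45 ± 0.679% in subsidiary day and 1.36 ± 0.439% in subsidiary night libraries (SD, n = 4 each). No comparison called it in any setting tried, with adjusted p from 0.824 to 0.982 over the 7 comparisons. Adjusted p-values here and below are those of limma with Benjamini-Hochberg adjustment over all 37759 genes unless another tool is named, and genes with an adjusted p below 0.05 count as called.

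The next peroxidase by count, Zm00001d024735, was led by 1 library. It had 2114, 96027, 2080.2 and 5845 counts in guard day libraries, 3222, 1941, 24122 and 321 in guard night libraries, 7518, 2232, 1719.8 and 9187 in subsidiary day libraries and 2001, 7558, 3615 and 15793 in subsidiary night libraries. Replicate 2 of guard cells by day was far above the others, and no comparison called the gene. The most abundant Glutathione gene, Zm00001d043787, had 6227, 6355, 10712 and 8366 counts in guard cells by day and 7632, 9703, 16115 and 3702 in guard cells by night. In subsidiary cells it had 4507, 11558, 8514 and 17004 by day and 5209.7, 8579, 10019 and 16886 by night. These groups overlapped as well, with adjusted p from 0.847 to 1.00. The steadiest gene, the peroxidase Zm00001d022290, stayed between 173 and 399 counts in all 16 libraries (SD 0.38 on the log2 scale). By contrast, the Glutathione gene Zm00001d031953 was the most variable (SD 3.44), with 3.96, 0, 394 and 107 and 0, 0, 44.1 and 6.86 counts in the guard day and guard night libraries, and 1158, 1050.3, 65.7 and 357 and 26.4, 23.7, 161 and 157 in the subsidiary day and subsidiary night libraries. Guard and subsidiary libraries overlapped at both times, and the difference averaged over both times missed the threshold (-4.08 ± 1.16, adjusted p = 0.0729), which it passed without replicate 3 of guard cells by day (adjusted p = 0.0294) or replicate 3 of guard cells by night (adjusted p = 0.0459).

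**Figure D2:**
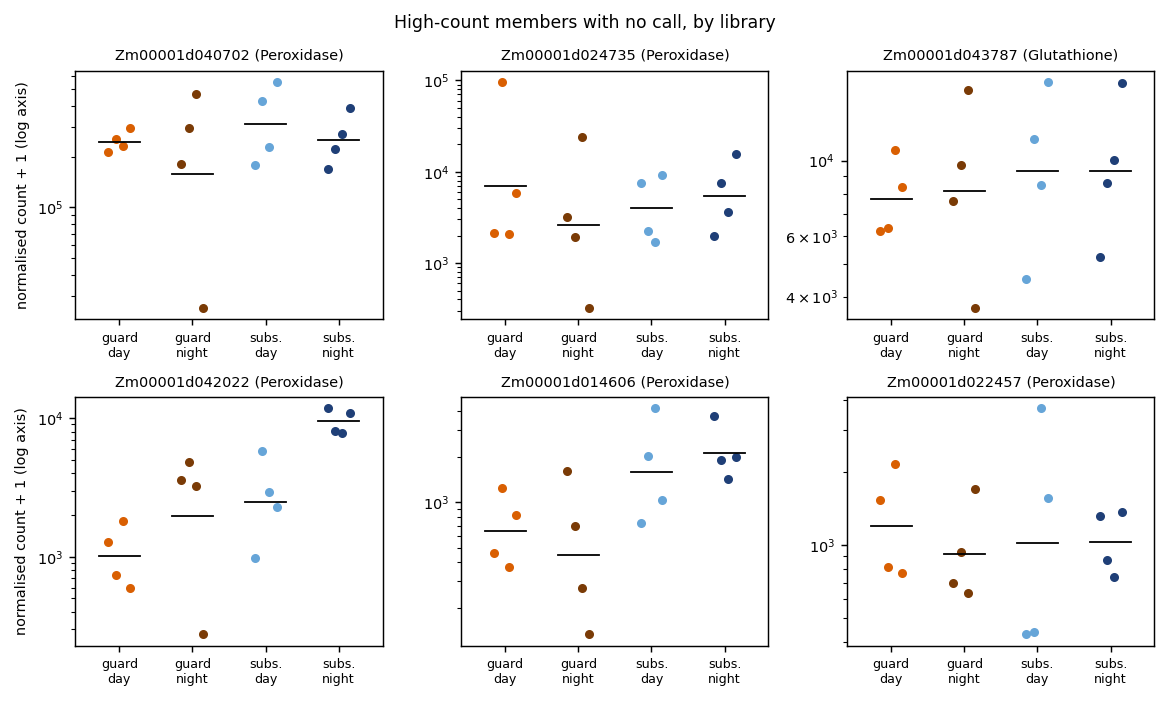
Normalised counts (log axis) of 6 high-count genes that no comparison called, by library (points), from left to right guard day, guard night, subsidiary day and subsidiary night, with geometric means of count + 1 as bars. Groups overlap for Zm00001d040702, Zm00001d024735, Zm00001d043787 and Zm00001d022457, while Zm00001d042022 has its 4 highest values in subsidiary cells by night.

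Over all comparisons 11 of the 175 genes were called at least once, 7 peroxidases, 3 Glutathione genes and GST7. That is 6.29%, beside 5.16% of all tested genes. That share lay near the background. Fold changes are differences of mean log2(normalised count + 1), given with the standard error of the fit. For genes with low counts such a difference can be smaller or larger than the log2 ratio of the mean counts. Settings named below as ending or adding a call leave out the replicate block, whose effects on calls are given in the closing section.

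GST7 (Zm00001d042104), the gene with a transferase name, was highest in guard cells by day. Its counts were 17421, 11866, 15451 and 12489 in guard day libraries, 778, 932, 381 and 2778 in guard night libraries, 1666, 3090.0, 984 and 843 in subsidiary day libraries and 177, 251, 319 and 243 in subsidiary night libraries. The 4 guard day libraries lay above all other libraries and the 4 subsidiary night libraries below all others, while the other groups overlapped. By day it was higher in guard than in subsidiary cells, by 3.30 ± 0.49 (adjusted p = 0.00196). By night the difference was 1.95 ± 0.49 and missed the threshold (adjusted p = 0.154), although the 4 guard libraries all lay above the 4 subsidiary ones and DESeq2 called it (adjusted p = 0.00346). Between day and night it was higher by day in guard cells, by 3.91 ± 0.49 (adjusted p = 0.000295), and in subsidiary cells, by 2.56 ± 0.49 (adjusted p = 0.0104). The cell type differences by day and by night were not shown to differ (1.35 ± 0.69, adjusted p = 0.769). Its calls by day, in both day to night comparisons and in both averaged comparisons were kept in every setting tried. Summed photosynthetic counts were also highest in guard cells by day (0.618% of reads, against 0.167% by night and 0.266% in subsidiary cells by day), and their part in this result was not tested.

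Between day and night in guard cells, 3 of the 175 genes were called (1.71%, beside 0.866% of all genes), 3 higher and 0 lower by day (beside 0.747% and 0.119% of all genes). They were GST7, the peroxidase Zm00001d005279 and the Glutathione gene Zm00001d024839. Zm00001d005279 had 952, 164, 757 and 701 counts in guard cells by day and 29.7, 11.1, 40.2 and 23.2 by night, and 319, 355, 338 and 82.0 in subsidiary cells by day and 22.6, 20.2, 40.1 and 7.52 by night. Every day library exceeded every night library in both cell types. Its difference was 4.45 ± 0.73 in guard cells (adjusted p = 0.00387) and 3.54 ± 0.73 in subsidiary cells (adjusted p = 0.0175). The guard call held in every setting, while the subsidiary call ended without replicate 2 or 3 of subsidiary cells by day or replicate 4 of subsidiary cells by night (adjusted p 0.0637 to 0.0656). Averaged over both cell types the difference was 3.99 ± 0.51 (adjusted p = 0.000132), and the cell type difference by day was not called (1.18 ± 0.73, adjusted p = 0.563).

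Zm00001d024839 had 1637, 1335, 1852 and 1798 counts in guard cells by day and 19.1, 215, 36.3 and 6.86 by night, a difference of 5.61 ± 1.12 (adjusted p = 0.0171). In subsidiary cells it had 4.53, 372, 303 and 201 by day and 696, 119.6, 139 and 83.4 by night. The guard day libraries were above all other libraries, whereas in subsidiary cells day and night overlapped. The guard call ended in edgeR (adjusted p = 0.0812) and without replicate 1, 3 or 4 of guard cells by day or replicate 1 or 4 of guard cells by night (adjusted p 0.0524 to 0.0578), and DESeq2 gave no adjusted p for it. The difference between the cell types in their day to night change was 6.36 ± 1.59 and was not called (adjusted p = 0.373).

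The 35 Glutathione and GST7 genes as a class had a median day minus night difference of 1.03 in guard cells, beside -0.01 over all tested genes. The class was mixed, with 23 of the 35 positive and quartiles of -0.40 and 2.42. Leaving out 1 library at a time gave 0.60 to 1.39, and the median was 0.66 in edgeR, 0.67 in DESeq2 and 0.79 with a pseudocount of 10. At an unadjusted p under 0.05 there were 9 of the 35, all higher by day (25.7%, beside 10.1% of all genes in either direction). In subsidiary cells the median of the class was -0.00095, with 6 genes at an unadjusted p under 0.05, 4 higher and 2 lower by day (17.1%, beside 11.2% of all genes). The 140 peroxidases had a guard cell median of 0.10 and a subsidiary cell median of 0.16. Between guard and subsidiary cells the class median was 0.38 by day, and it ran from -0.00091 without replicate 1 of subsidiary cells by day to 0.62. By night it was -0.33, from -0.79 to -0.28 with 1 library left out. No test was made of the class, since it was chosen with earlier results known. Photosynthetic counts were higher by day in guard cells as well, and their part in the class median was not tested.

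**Figure D3:**
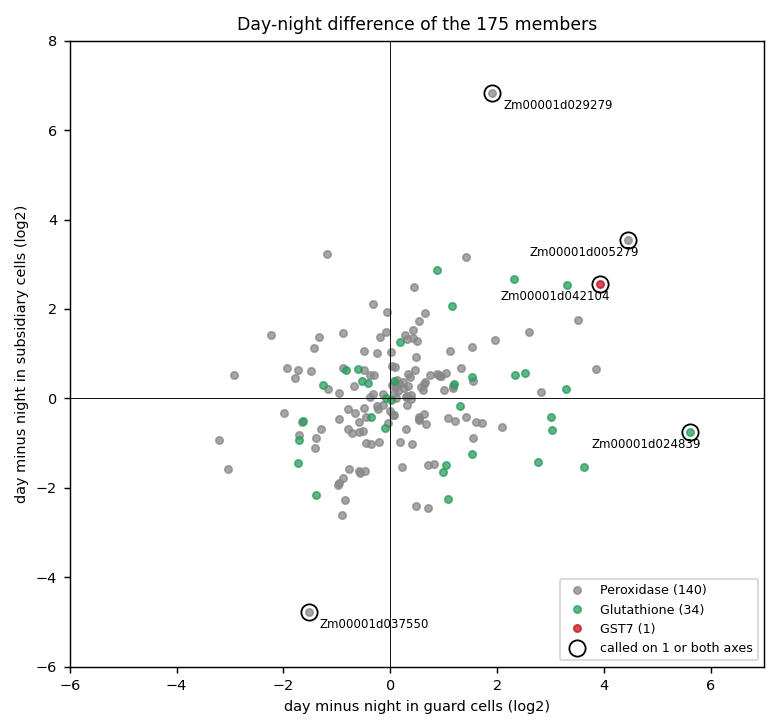
Day minus night difference in log2(normalised count + 1) of each of the 175 genes, in guard cells (x axis) and in subsidiary cells (y axis), by description word, with rings on genes called in 1 or both cell types. Most genes lie near 0, GST7 and Zm00001d005279 are positive on both axes, Zm00001d037550 lies at -4.77 on the y axis and the 35 Glutathione and GST7 genes have a median of 1.03 on the x axis.

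Some genes of small p or high count in guard cells were not called. The peroxidase Zm00001d046184 had 467, 41.1, 95.8 and 41.1 counts in guard cells by day and 3631, 578, 838 and 334 by night, a difference of -3.21 ± 1.01 (adjusted p = 0.194). Zm00001d030002, another peroxidase, had 64.4, 74.0, 5.42 and 0 by day and 169, 115, 90.7 and 56.6 by night (-2.92 ± 1.09, adjusted p = 0.322). Day and night overlapped for both genes. The Glutathione genes Zm00001d002704 and Zm00001d012675 and the peroxidase Zm00001d022457, among the most abundant of their classes, ranged over 169 to 3033, 73.2 to 2033 and 428 to 3683 counts, and no comparison called them in any setting.

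In subsidiary cells, 4 of the 175 genes were called between day and night (2.29%, beside 1.22% of all genes), 3 higher and 1 lower by day (beside 0.673% and 0.548% of all genes). Unadjusted p-values lay under 0.05 for 19 genes (10.9%, beside 11.2% of all genes). The gene lower by day was the peroxidase Zm00001d037550, with 55.5, 75.8, 87.3 and 50.3 counts in subsidiary cells by day and 1550.2, 1289.7, 1879 and 2889.7 by night. In guard cells it had 72.3, 87.7, 240.5 and 136 by day and 319, 1412, 425 and 75.5 by night. Day and night did not overlap in subsidiary cells and did in guard cells, where replicate 4 by night was as low as day libraries. The difference was -4.77 ± 0.65 in subsidiary cells (adjusted p = 0.000534) and -1.52 ± 0.65 in guard cells (adjusted p = 0.412, with a call by DESeq2 at 0.0423). Averaged over the cell types it was -3.15 ± 0.46 (adjusted p = 0.000437), and the subsidiary and averaged calls held in every setting. The difference of this change between the cell types was not called (3.25 ± 0.91, adjusted p = 0.475). By night guard libraries lay below the subsidiary ones except that replicate 2 of guard cells overlapped them, a difference of -2.38 ± 0.65 (adjusted p = 0.190) that was called without that library (adjusted p = 0.0389). Histone and cyclin genes were also lower by day in subsidiary cells (0.0758% of reads by day and 0.248% by night), and their part in this result was not tested.

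The other peroxidase called in subsidiary cells, Zm00001d029279, had calls that ended in many settings. It had 651, 623, 1245 and 283 counts in subsidiary cells by day and 0, 0, 13.9 and 56.1 by night. In guard cells it had 251, 26.0, 74.1 and 10.5 by day and 3.81, 106, 0 and 56.6 by night, so that day and night overlapped there. Its subsidiary difference was 6.83 ± 1.49 (adjusted p = 0.0268), and libraries at 0 enter it through the pseudocount. The same difference was 4.97 with a pseudocount of 10, 5.28 in edgeR and 5.32 in DESeq2. That call ended in edgeR (adjusted p = 0.157) and without any 1 of the 4 subsidiary day libraries or replicate 1 or 2 of subsidiary cells by night (adjusted p 0.0539 to 0.102). Averaged over both cell types its difference was 4.37 ± 1.05 (adjusted p = 0.0290), a call lost in edgeR, DESeq2 and fits without replicate 1 or 3 of guard cells by day, replicate 1 or 3 of guard cells by night, replicate 2 or 3 of subsidiary cells by day or replicate 1 or 2 of subsidiary cells by night (adjusted p 0.0538 to 0.124).

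Averaged over both cell types, 6 of the 175 genes were called between day and night (3.43%, beside 2.62% of all genes), 4 higher and 2 lower by day (beside 1.7% and 0.916% of all genes). Unadjusted p-values lay under 0.05 for 30 genes (17.1%, beside 13.8% of all genes). Besides GST7, Zm00001d005279, Zm00001d037550 and Zm00001d029279, these were the Glutathione gene Zm00001d024963 and the peroxidase Zm00001d026357. Zm00001d024963 had 4175, 979, 3479 and 1019.9 counts in guard cells by day and 187, 192, 496 and 84.1 by night, and 245, 1542, 522 and 632 in subsidiary cells by day and 80.1, 7.03, 787 and 217 by night. Day exceeded night without overlap in guard cells, and in subsidiary cells replicate 3 by night lay among the day libraries. The averaged difference was 2.92 ± 0.70 (adjusted p = 0.0288), and the call was lost in edgeR and fits without replicate 1 or 3 of guard cells by day, replicate 1 or 2 of guard cells by night, replicate 2 or 4 of subsidiary cells by day or replicate 1 of subsidiary cells by night (adjusted p 0.0504 to 0.0734). Its difference in guard cells was 3.30 ± 0.99 (adjusted p = 0.165), called by DESeq2 (adjusted p = 0.00818), with only the groups compared (adjusted p = 0.0408) and without replicate 2 of subsidiary cells by night (adjusted p = 0.0375). Zm00001d026357 had 384, 308, 465 and 92.6 counts in guard cells by day and 398, 1150.1, 695 and 167 by night, and 466, 504, 212 and 224 in subsidiary cells by day and 1314, 1473, 1602 and 2005 by night. It was lower by day without overlap in subsidiary cells, while guard cells overlapped. The averaged difference was -1.56 ± 0.40 (adjusted p = 0.0381), and that call was lost in fits without replicate 2 or 4 of guard cells by day, replicate 1, 2 or 3 of guard cells by night, replicate 3 or 4 of subsidiary cells by day or replicate 1, 2, 3 or 4 of subsidiary cells by night (adjusted p 0.0539 to 0.0837). In subsidiary cells alone it differed by -2.28 ± 0.56 (adjusted p = 0.0525), which DESeq2 called (adjusted p = 0.00535). It was also called with only the groups compared (adjusted p = 0.00776), with a pseudocount of 10 (adjusted p = 0.0394), without both libraries that stand apart (adjusted p = 0.0204) and without replicate 4 of guard cells by day or replicate 2 or 4 of guard cells by night (adjusted p 0.0177 to 0.0374).

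Between guard and subsidiary cells by day, 3 of the 175 genes were called (1.71%, beside 1.34% of all genes), 2 higher and 1 lower in guard cells (beside 0.943% and 0.395% of all genes). At an unadjusted p under 0.05 there were 18 (10.3%, beside 12.4% of all genes). Along with GST7, the Glutathione gene Zm00001d029696 was higher. Its counts were 4106, 1083, 5206 and 4886 in guard cells by day and 241, 329, 526 and 93.9 in subsidiary cells by day, with 124, 1442, 1015 and 138 in guard cells by night and 437, 415, 817 and 188 in subsidiary cells by night. The guard day libraries all exceeded the subsidiary day ones, and replicate 2 was the lowest of them. The day difference was 3.70 ± 0.76 (adjusted p = 0.0190), and it missed the threshold without replicate 1, 3 or 4 of guard cells by day or replicate 4 of subsidiary cells by day (adjusted p 0.0518 to 0.0755). Between day and night in guard cells it differed by 3.03 ± 0.76 (adjusted p = 0.0740), and this was called without replicate 2 of guard cells by day (adjusted p = 0.0378), without replicate 2 of guard cells by night (adjusted p = 0.0270) and by DESeq2 (adjusted p = 0.0251). By night the cell types overlapped, and the change of the difference from day to night was not called (3.73 ± 1.08, adjusted p = 0.498).

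The peroxidase Zm00001d042019 was lower in guard than in subsidiary cells. It had 208, 79.4, 309 and 70.8 counts in guard cells by day and 447, 1228, 499 and 587 in subsidiary cells by day, and 441, 479, 141 and 459 in guard cells by night and 1228, 1196, 823 and 877 in subsidiary cells by night. Guard and subsidiary libraries did not overlap at either time. Averaged over both times the difference was -1.88 ± 0.36 (adjusted p = 0.00762), a call kept in every setting. The day difference of -2.19 ± 0.51 was called (adjusted p = 0.0379) but lost in edgeR, a fit of only the groups compared and fits without replicate 2 or 4 of guard cells by day, replicate 2, 3 or 4 of subsidiary cells by day or replicate 1, 2 or 4 of subsidiary cells by night (adjusted p 0.0503 to 0.128). By night the same gene differed by -1.56 ± 0.51 (adjusted p = 0.296).

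Averaged over both times, 4 of the 175 genes were called between the cell types (2.29%, beside 2.4% of all genes), 2 higher and 2 lower in guard cells (beside 1.34% and 1.06% of all genes). Without adjustment 26 genes had a p under 0.05 (14.9%, beside 13.4% of all genes). GST7 differed by 2.62 ± 0.35 (adjusted p = 0.000418). Zm00001d040705, a peroxidase whose gene-model number is close to that of the dominant Zm00001d040702, was higher in guard cells, with 398, 160.2, 213 and 166 counts by day and 113, 45.6, 279 and 58.3 by night, against 23.8, 47.4, 42.0 and 59.5 by day and 34.2, 75.6, 27.0 and 17.8 by night in subsidiary cells. Its groups did not overlap by day and did by night. The difference of 1.94 ± 0.49 (adjusted p = 0.0411) was lost in fits without replicate 1, 2, 3 or 4 of guard cells by day, replicate 1 or 3 of guard cells by night, replicate 1, 2, 3 or 4 of subsidiary cells by day or replicate 1, 3 or 4 of subsidiary cells by night (adjusted p 0.0521 to 0.0977). Zm00001d014608, also a peroxidase, was lower in guard cells, with 40.6, 16.4, 183 and 71.7 counts by day and 119.7, 143, 93.3 and 84.1 by night, against 258, 210.5, 414 and 328 by day and 300.2, 249.7, 173 and 415 by night in subsidiary cells. Guard and subsidiary libraries did not overlap at either time. Its difference of -1.86 ± 0.42 (adjusted p = 0.0225) was lost in edgeR (adjusted p = 0.0521) and without replicate 3 or 4 of subsidiary cells by day or replicate 4 of subsidiary cells by night (adjusted p 0.0504 to 0.0558). By day alone the difference was -2.40 ± 0.60 (adjusted p = 0.0543), and it was called by DESeq2 (adjusted p = 0.0263), with a pseudocount of 10 (adjusted p = 0.0473) and without replicate 3 of guard cells by day (adjusted p = 0.0204) or replicate 4 of guard cells by night (adjusted p = 0.0451).

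A pair of high-count peroxidases lay near the threshold of the averaged cell type comparison. Zm00001d042022 had 1279.7, 739.6, 1809 and 596 counts in guard cells by day and 3570.2, 4821, 3216 and 275 by night, against 984, 5755, 2911 and 2282 by day and 11784, 8014, 7751 and 10951 by night in subsidiary cells. Only by night did the cell types not overlap, and its difference was -1.78 ± 0.49 (adjusted p = 0.0656). It was called without both libraries that stand apart (adjusted p = 0.00389), without replicate 2 or 4 of guard cells by night or replicate 1 of subsidiary cells by day (adjusted p 0.0330 to 0.0413) and by DESeq2 (adjusted p = 0.0126). Likewise, its averaged day minus night difference of -1.45 ± 0.49 (adjusted p = 0.153) was called without both libraries (adjusted p = 0.00121), without replicate 4 of guard cells by night alone (adjusted p = 0.00153) and by DESeq2 (adjusted p = 0.0129). Zm00001d014606 had 458, 1246, 371 and 819.7 counts by day and 1598, 699, 269.5 and 132 by night in guard cells, against 729, 2023, 4192 and 1031 by day and 3737, 1896, 1417 and 1983 by night in subsidiary cells, and differed by -1.77 ± 0.47 (adjusted p = 0.0505). Cell types overlapped at both times, and the difference was called by DESeq2 (adjusted p = 0.0182), with a pseudocount of 10 (adjusted p = 0.0410) and without both libraries that stand apart (adjusted p = 0.0342). It was called as well without replicate 2 of guard cells by day, replicate 1 of guard cells by night or replicate 1 of subsidiary cells by day (adjusted p 0.0146 to 0.0421).

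**Figure D4:**
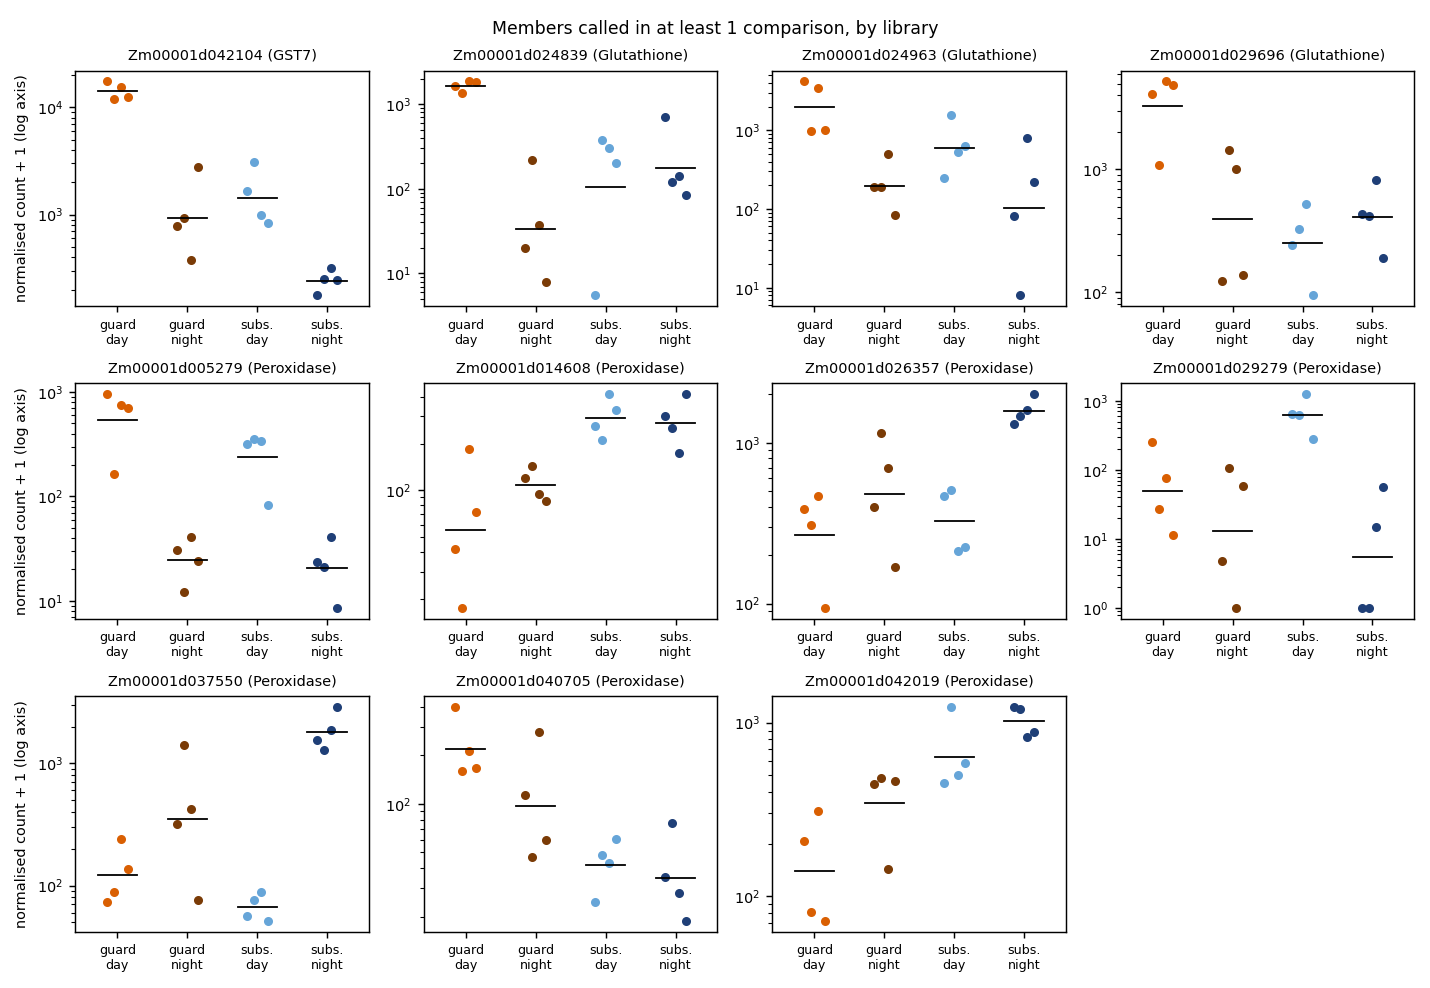
Normalised counts (log axis) of the 11 genes called in at least 1 comparison, by library (points), from left to right guard day, guard night, subsidiary day and subsidiary night, with geometric means of count + 1 as bars. GST7 is highest in guard cells by day, Zm00001d005279 is higher by day in both cell types, and Zm00001d037550 is highest in subsidiary cells by night.

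By night, 0 of the 175 genes were called between guard and subsidiary cells by limma, beside 0.0291% of all genes (0.0185% higher and 0.0106% lower in guard cells). At an unadjusted p under 0.05 there were 22, of which 6 were higher and 16 lower in guard cells (12.6%, beside 8.57% of all genes). edgeR called 0 of them and DESeq2 called 1, GST7. Among the genes of smallest p was the peroxidase Zm00001d028348, which had 41.9, 111, 22.0 and 165 counts in guard cells by night and 36.6, 7.03, 5.23 and 0.684 in subsidiary cells by night. It differed by 3.13 ± 1.02 (adjusted p = 0.296), and replicate 3 of guard cells by night overlapped the subsidiary libraries.

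A change of the cell type difference between day and night was called for 0 of the 175 genes and 0% of all genes by limma, and for 0 of the 175 by edgeR and by DESeq2. At an unadjusted p under 0.05 there were 15 genes (8.57%, beside 6.71% of all genes). By day Zm00001d028348 had 23.8, 37.0, 37.1 and 18.4 counts in guard cells and 281, 89.5, 31.3 and 29.1 in subsidiary cells, and its interaction was -4.42 ± 1.45 (adjusted p = 0.563). Also among the genes of smallest p, the peroxidase Zm00001d017996 had an interaction of -3.63 ± 1.51 (adjusted p = 0.685). Its counts ran from 3.62 to 65.5 in guard cells by day and from 22.3 to 98.7 by night. In subsidiary cells they ran from 53.9 to 129 by day and from 6.10 to 242 by night.

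Without a threshold on p, groups did not overlap in 9 genes higher and 5 lower in guard than in subsidiary cells by day (8.00% of the 175, beside 7.8% of all genes, 4.27% higher and 3.53% lower). By night there were 2 higher and 6 lower (4.57%, beside 5.81%, of which 2.53% higher and 3.27% lower). Between day and night, 9 were higher and 3 lower by day in guard cells (6.86%, beside 5.71%, 3.49% higher and 2.22% lower), and 6 were higher and 9 lower by day in subsidiary cells (8.57%, beside 8.84%, 4.25% higher and 4.59% lower). These shares lay near those of all genes. The group with the highest mean was guard day for 50 genes (28.6%, beside 26.0% of all genes), guard night for 30 (17.1%, beside 23.3%), subsidiary day for 50 (28.6%, beside 24.5%) and subsidiary night for 45 (25.7%, beside 26.2%).

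**Figure D5:**
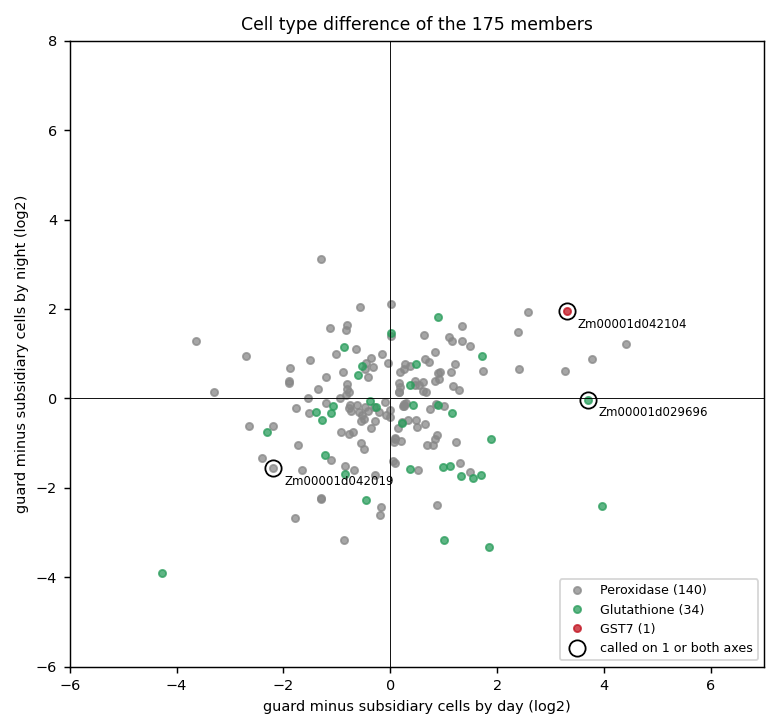
Guard minus subsidiary difference in log2(normalised count + 1) of each of the 175 genes, by day (x axis) and by night (y axis), by description word, with rings on genes called at 1 or both times. The ringed genes are called by day, GST7 (3.30) and Zm00001d029696 (3.70) to the right and Zm00001d042019 (-2.19) to the left of 0.

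Runs of close gene-model numbers (steps of at most 3) held 86 of the 175 genes in 31 runs of up to 5 genes, and 6 of the 11 called genes were in runs. Reads of near-identical copies may be split or shared in such runs, so values of single genes there are uncertain. Zm00001d014608 was called in the run of 5 genes around Zm00001d014606, whose mean counts ran from 26.3 to 1413. Zm00001d042019 and Zm00001d042022 form another run, with mean counts of 567 and 4171.

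Other genes of peroxide and glutathione chemistry were chosen by first words too. Among 30 genes for peroxide and superoxide removal, 1 was called between cell types by day, 2 averaged over both times and 1 between day and night averaged over both cell types, all positive. Of all genes, 1.34% were called between the cell types by day and 2.4% averaged over both times, and between day and night 0.866% in guard cells, 1.22% in subsidiary cells and 2.62% averaged over both cell types. Thioredoxin Zm00001d007800 had a mean of 1561 ± 929 counts in guard cells by day and 152 ± 208 in subsidiary cells by day (SD, n = 4 each), a difference of 4.24 ± 0.93, adjusted p = 0.0256. Averaged over both times it was called just under the threshold (2.50 ± 0.66, adjusted p = 0.0498). Peroxiredoxin Zm00001d037103 was higher in guard cells averaged over both times (3.25 ± 0.64, adjusted p = 0.00914). Thioredoxin Zm00001d041804 was higher by day (2.88 ± 0.58, adjusted p = 0.00820). Thioredoxins reduce protein disulphides, and peroxiredoxins reduce peroxides. Of 8 genes for sources of superoxide and peroxide, 1 was lower in guard cells averaged over both times, the gene Zm00001d011845 with the word NADPH (-3.50 ± 0.67, adjusted p = 0.00697), whose first word does not give its enzyme. Of 3 genes for glutathione supply, Gamma-glutamyltranspeptidase Zm00001d003446 was lower by day in subsidiary cells and averaged over both cell types (-3.05 ± 0.68, adjusted p = 0.0289 in subsidiary cells). Among 68 lignin pathway genes, Dirigent Zm00001d022271 was higher by day in guard cells (5.01 ± 0.70, adjusted p = 0.000788), in subsidiary cells (3.67 ± 0.70, adjusted p = 0.0104) and averaged, and Cinnamyl Zm00001d015618 only averaged (1.71 ± 0.45, adjusted p = 0.0481). Dirigent proteins guide the coupling of phenolic radicals. No other gene of these lists was called. These calls are from the main fit only, and whether they hold in other settings was not examined.

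In the authors' deposited table, which gives log2 fold changes of night over day and of subsidiary over guard cells, signs run opposite to those above. Of the 172 genes with an adjusted p-value there, 7 were under 0.05 by day between the cell types, 2 positive and 5 negative, beside 4.53% of all genes with a value in the authors' deposited table. By night the authors' deposited table has 1, negative, beside 1.65%. Between night and day, the authors' deposited table has 1 positive and 6 negative in guard cells, beside 3.01%, and 3 positive and 4 negative in subsidiary cells, beside 3.62%. GST7 is at -2.94 by day between the cell types and at -3.39 in guard cells between night and day in the authors' deposited table. Zm00001d037550 is there at 4.65 in subsidiary cells between night and day, the authors' deposited table giving a higher value by night.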

How the data were processed

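Expression was measured by RNA sequencing of polyA RNA amplified with SMART-Seq v4 from laser-dissected cells, in 16 libraries of 4 groups, per the labels' protocols. Strand is not kept by this kit and molecules carry no identifiers, so overlapping genes can share reads. In the deposited table the authors give normalised counts (signal), each library scaled by its own size factor, as the values themselves show: all values of every library were whole multiples of 1 step within 0.01, and 62 shifted lines of the table were moved back. The authors' log2 fold changes (a score, since most are shrunken) and adjusted p-values were made by the authors on B73 RefGen v4 with DESeq2 1.40.2, according to processing notes of the submitters. Aligner and counter: not given in the sources used here. Gene lengths and sequences of these gene models were not used here.

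Differences were tested with limma-trend on log2(normalised count + 1), with 4 group means over 16 libraries (12 residual degrees of freedom), on genes with a count of at least 10 in at least 4 libraries, adjusted over all 37759 genes by Benjamini-Hochberg. Calls were made below an adjusted p of 0.05. The 7 comparisons were guard minus subsidiary cells by day, by night and averaged, day minus night in guard cells, in subsidiary cells and averaged, and the interaction. They share libraries. Library depth was 16.6 to 28.9 M recovered reads, and replicates come from 4 collections. The p-values set differences against the spread between libraries of the same group. How far that spread comes from collections or from library preparations was not tested. Alternatives were a pseudocount of 10, no filter, edgeR and DESeq2 on recovered reads, a replicate block, only the groups compared, each library left out, and both libraries that stand apart left out. The limma fit was run on simulated data to check bias, direction and false calls, and no share of recovered changes was required. A gene that was not called is therefore not shown to be unchanged. Sums over a class are given as description, and their planned permutation test was not used, because members were chosen with results known.

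The members and the gene lists were chosen with earlier results of these data known. Genes are named by a rule: every called gene, those of smallest p per comparison and direction, those of highest mean count, GST7, and those of highest and lowest spread. Samples were not paired by replicate number in the main fit. Over 24 pairs of libraries with the same number, correlations of deviations from the group means ran from -0.06 to 0.08. Such low correlations show no strong shared effect, but cannot tell whether libraries of the same number came from the same collection. Software was limma 3.58.1, DESeq2 1.42.0 and edgeR 4.0.16 under R 4.3.3.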

Additional observations from a re-analysis of the deposited data

Results flagged for a closer look

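In 5 of 100 groups of 4 libraries examined, 1 library lay far from the other 3 on the scale of log2(normalised count + 1). There its gap over range was above Dixon's 95% critical value, which chance gives in about 1 in 20 groups. The counts below are on the unlogged scale, on which the ratios differ. The peroxidase Zm00001d005279 had 82.0 counts in replicate 4 of subsidiary cells by day, against 319 to 355 in the other libraries of that group. The Glutathione gene Zm00001d024839 had 4.53 counts in replicate 1 of subsidiary cells by day, a library that stood apart, against 201 to 372. The Glutathione gene Zm00001d029696 had 1083 counts in replicate 2 of guard cells by day, against 4106 to 5206. The peroxidase Zm00001d042019 had 141 counts in replicate 3 of guard cells by night, against 441 to 479. The peroxidase Zm00001d042022 had 275 counts in replicate 4 of guard cells by night, the other library that stood apart, against 3216 to 4821.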

How the results depend on the processing

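DESeq2 called 7 genes between guard and subsidiary cells by day, against 3 in limma, and 1 by night, against 0. Averaged over both times DESeq2 called 10, against 4. Between day and night it called 7 in guard cells, against 3, and 8 in subsidiary cells, against 4. Averaged over both cell types, its day to night count was 9, against 6. edgeR called 2, 0 and 4 between the cell types by day, by night and averaged, 2, 3 and 5 between day and night in guard cells, in subsidiary cells and averaged, and 0 for the interaction. A pseudocount of 10 gave 6 between the cell types by day. Without both libraries that stand apart, 7 were called between the cell types averaged over both times and 10 between day and night averaged over both cell types, against 6. Leaving out 1 library at a time gave 1 to 4 by day, 0 to 1 by night and 2 to 6 averaged over both times between the cell types. Between day and night it gave 2 to 4 in guard cells, 2 to 7 in subsidiary cells and 3 to 9 averaged. For the interaction it gave 0. The cause of these shifts was not tested. Libraries of the same replicate number showed no strong shared deviation (6 of 16 libraries correlated best with a library of their own number). That cannot tell whether they came from the same collection. With the replicate block 2, 0 and 3 genes were called between the cell types by day, by night and averaged, 4, 4 and 5 between day and night in guard cells, in subsidiary cells and averaged, and 0 for the interaction. The block ended the calls of Zm00001d029279 in subsidiary cells (adjusted p = 0.0564) and averaged over both cell types (0.0573), of Zm00001d042019 by day (0.0629) and of Zm00001d040705 averaged over both times (0.0676). It added Zm00001d029696 between day and night in guard cells (adjusted p = 0.0466) and Zm00001d026357 in subsidiary cells (0.0385). For single genes the alternatives were counted over 47 selected pairs of a gene and a comparison, those the naming rule picked or the text prints: 932 values kept their side of the threshold, 80 were no longer called, 46 were newly called and 0 changed sign. Over the other 128 pairs of the named genes, of which 0 were called, 141 values in 42 pairs changed sign, and the difference in those pairs was at most 1.04 in size. No difference of class sums moved beyond its spread between replicates (SD up to 1.16 on the log2 scale). Several changed sign with 1 library left out. Of the summed peroxidase counts in a library, Zm00001d040702 alone held 60.7 to 94.0%. For these sums, day minus night in guard cells was 0.57 and ran from -0.18 to 1.03. Guard minus subsidiary cells by night was -0.58 and ran from -1.04 to 0.17. For sums of Glutathione genes, day minus night in subsidiary cells was 0.06 and ran from -0.10 to 0.32. Their guard minus subsidiary difference by night was -0.33 and ran from -0.56 to 0.03. The other sums kept their sign. For the 21 genes with a library at 0, the part of depth in those zeros was not tested.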
